A study of Mus musculus with 300 samples.

Results

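The chemokine receptor genes Ccr9, Ccr7, Ccr8, Cxcr4 and Cxcr5 were read by symbol from the expression matrix of single cells of the mouse embryonic thymus. All 5 genes were found among its 13737 features and were followed over every cell. The cells had been sorted singly into plates as early thymic progenitors (ETPs), the earliest T-lineage precursors in the thymus, of E15.5 embryos, and sequenced with Smart-seq2, which copies whole transcripts. Every cell came from mice of 1 strain, 5x polychromILC, which carries reporters for lymphoid transcription factors, among them Id2, Gata3, Rora and Bcl11b. All groups described here share these alleles. No treatment, second genotype or second age was labelled, so the groups of this text are the 4 labelled mice and the kinds of cell found within them. Mouse 1A gave 67 cells, mouse 1B 69, mouse 2A 64 and mouse 2B 61. The sources used here give neither the sort gates nor the number of embryos behind each mouse id.

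Chemokine receptors are G protein-coupled receptors that steer cells along gradients of small secreted proteins, the chemokines. Ccr9 binds Ccl25, which is made by thymic epithelium, and Ccr7 binds Ccl19 and Ccl21a. Together they draw blood-borne progenitors into the thymus, and Ccr7 later guides maturing thymocytes to the medulla. Cxcr4 binds Cxcl12 and keeps early progenitors close to the cortical stroma. Ccr9 is also carried by plasmacytoid dendritic cells. Ccr8, the receptor of Ccl1 and Ccl8, is known from activated and regulatory T cells and from innate lymphoid cells. Cxcr5 binds Cxcl13 and is known from B cells, follicular helper T cells and lymphoid tissue inducer cells.

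In GRCm38 with GENCODE vM21, Ccr9 lies on the plus strand of chromosome 9 from 123678439 to 123784330, Ccr8 on the plus strand of chromosome 9 from 120092114 to 120094906, and Cxcr5 on the minus strand of chromosome 9 from 44511787 to 44561877. Ccr7 lies on the minus strand of chromosome 11 from 99144196 to 99155077 and Cxcr4 on the minus strand of chromosome 1 from 128588199 to 128592293. The annotated span of Ccr9 overlaps Lztfl1 and the end of Slc6a20a on the other strand, and that of Cxcr5 overlaps Bcl9l. The sources used here do not say whether reads kept their strand, so values of these 2 receptors are uncertain to the extent that reads of the overlapping genes were assigned to them. No gene overlaps Ccr7, Ccr8 or Cxcr4.

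Values are the authors' batch-corrected log2 expression values. For each receptor, cells without reads share a repeated lowest value, which lay between -0.122 and 0.149 for these 5 genes. A receptor was called detected in a cell above that value, and to have "a level of at least 10" where the linear value exceeded the linear no-read value by 10 or more, which is a log2 value of about 3.45 or more. The matrix gives no read counts. The number of detected genes stands in for depth, with a median of 7782 per cell (5073 to 10337). The 95% intervals of shares are Clopper-Pearson intervals and reflect counting error only. For a count of 0, the limit given instead is the share that 3 cells would make. Levels are not compared between genes because the values are not known to be per length.

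Ccr9 was the most widely detected receptor and Cxcr5 the least. Ccr9 was detected in 57.8 ± 11.2% of cells (mean ± SD, n = 4 mice): 48 of 67 cells in mouse 1A, 37 of 69 in 1B, 29 of 64 in 2A and 37 of 61 in 2B. Cxcr4 followed with 40.4 ± 7.93%, or 30, 22, 23 and 30 cells in the same order. Ccr8 was detected in 23.7 ± 3.98% (19, 17, 12 and 14 cells), Ccr7 in 14.3 ± 6.14% (11, 4, 13 and 9 cells) and Cxcr5 in 9.71 ± 4.88% (3, 5, 10 and 7 cells). For Ccr9 the exact interval ran from 59.3 to 82% in mouse 1A and from 32.8 to 58.3% in 2A. Within mouse 2A the share was 65.5% on plate AF2 and 28.6% on plate JW7. No difference between mice is read from these intervals, which count cells. The median feature of the matrix was detected in 57.9% of cells, the share of Ccr9, and 8.63% of features were detected in fewer cells than Cxcr5.

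At a level of at least 10, Ccr9 was left in 23.6 ± 7.30% of cells, Ccr8 in 9.80 ± 5.65%, Ccr7 in 9.20 ± 4.92%, Cxcr4 in 6.57 ± 2.25% and Cxcr5 in 1.95 ± 0.890% (n = 4 mice). Of the cells with Ccr7, 64.9% passed this level, and of those with Cxcr4 16.2%. In the cells where it was detected, Ccr7 had a lowest value of 0.51, a median of 4.85 and a highest of 9.11, and Cxcr4 a lowest of 0.65, a median of 2.08 and a highest of 6.40. Ccr9 reached 12.21 and Ccr8 13.21, while most detected cells of both genes lay low, with medians of 2.29 and 1.92. Of the cells with Ccr9 41.1% and of those with Ccr8 41.9% had a level of at least 10, so both were low in the larger part of their cells.

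**Figure D1:**
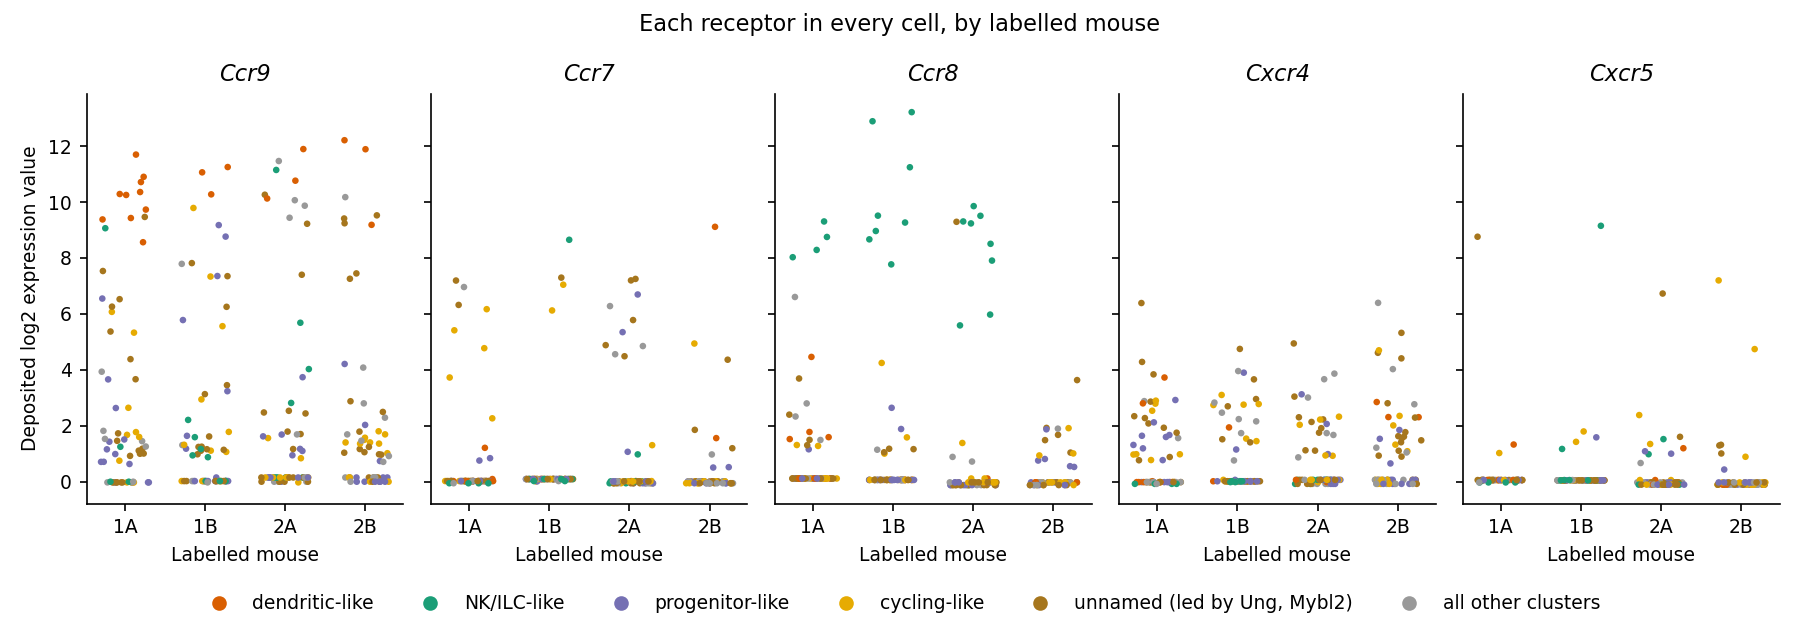
Deposited log2 value of each receptor (vertical axis) in every cell, by labelled mouse (horizontal axis), with 1 point per cell coloured by cluster. Dendritic-like cells hold the highest Ccr9 values (8.56 to 12.21) and NK/ILC-like cells the highest Ccr8 values (up to 13.21), while most Cxcr4 values stay under 4.

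To ask which cells hold each receptor, cells were clustered without any chemokine or chemokine receptor gene, and clusters were named from marker lists of cell types. Of the 10 clusters, 55 cells were progenitor-like (led by Mpo and Adgrg1 among others, with Kit and Cd34 detected in 55 of 55), and 47 were cycling-like (Plk1, Aurka). The progenitor-like cells also held T-lineage genes: Trbc1 was among their leading genes, and Tcf7 was detected in 51 and Il2ra in 33 of the 55. A further 78 cells were led by Ung, Mybl2 and Rrm2 and stayed unnamed. The 47 and 78 cells also held progenitor genes and are called cycling progenitors where they are joined. The NK/ILC-like cluster had 21 cells (Il2rb, Klrk1, Gzma), the dendritic-like cluster 19 (Siglech, Irf8, Spib), the basophil- or mast-like cluster 9 (Mcpt8, Hdc) and the macrophage-like cluster 7 (Adgre1, Csf1r). NK stands for natural killer and ILC for innate lymphoid cells. Another 3 clusters stayed unnamed: 16 cells led by Gm9892 and Gm10800, 6 cells led by Pirb and Flt3, and 3 cells led by Pltp and Prss16. Cd3g was also among the leading genes of the NK/ILC-like cells, in which Cd3e was detected in 0 of 21 cells. Most cells thus held progenitor markers, with the other cell types beside them. Il2ra, which appears as progenitors advance, was also detected in 27 of the 47 and 44 of the 78 cells. The markers therefore do not show that most cells were at the earliest stage named by the label.

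**Figure D2:**
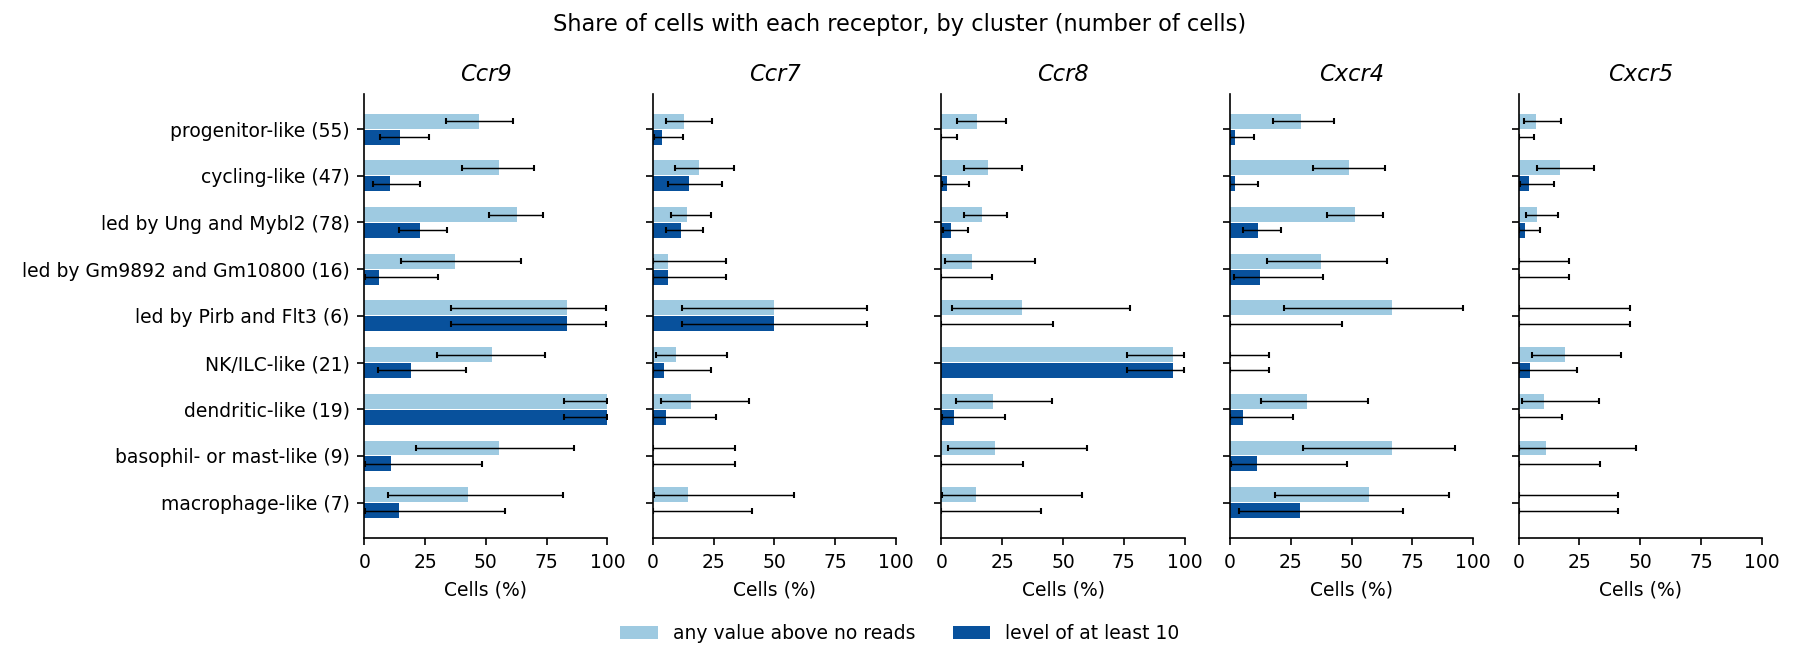
Share of cells in percent (horizontal axis) with any value above no reads (light bars) and with a level of at least 10 (dark bars) for each receptor, by cluster with its number of cells (vertical axis). Whiskers are exact 95% intervals, and the cluster of 3 cells is left out. Ccr9 reaches 100% in the dendritic-like cells and Ccr8 95.2% in the NK/ILC-like cells at both thresholds.

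Ccr9 was high in every dendritic-like cell. All 19 cells had Ccr9 at a level of at least 10 (exact interval 82.4 to 100%), with a lowest value of 8.56, a median of 10.36 and a highest of 12.21. By mouse, the medians were 10.27 in the 10 cells of 1A, and 11.06, 10.76 and 11.89 in the 3 cells each of 1B, 2A and 2B. Among the 55 progenitor-like cells, Ccr9 was detected in 26 and was at a level of at least 10 in 8, with a median of 0.15 and a highest value of 9.18. The 2 groups overlapped only at the top of the progenitor-like range. The 19 cells made up 7.28% of all cells and 30.6% of the 62 cells with Ccr9 at that level.

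Against the progenitor-like cells of the same mouse and correction set, Ccr9 was higher in dendritic-like cells by 8.43 in mouse 1A, 8.53 in 1B, 10.93 in 2A and 9.76 in 2B on the log2 scale. The mean was 9.41 ± 0.55 (SE, n = 4 mice; limma, two-sided, adjusted p = 0.00765). In that fit 11.6% of the 13118 genes tested were called, 2.08% higher and 9.56% lower. Of the 5 receptors, Ccr9 was the 1 that passed. Ccr7 differed by 0.65 ± 0.82, Cxcr4 by 0.55 ± 0.59, Cxcr5 by 0.13 ± 0.33 and Ccr8 by 0.10 ± 0.36, with adjusted p from 0.58 to 0.89. The limma call was lost without mouse 1A, which holds 10 of the 19 cells and had the smallest difference. Ccr9 then differed by 9.74 with an adjusted p of 0.0682, and no gene was called (3008 at an unadjusted p under 0.05). Without mouse 1B, 2A or 2B, 492, 377 and 343 genes were called, Ccr9 among them each time. Its limma adjusted p was then near the threshold, at 0.0454, 0.0405 and 0.0476. Each mouse gave 1 value to the fit, whatever its number of cells. Dendritic-like cells had fewer detected genes than progenitor-like cells (median 6112 against 7580); with the number of detected genes as a term, the difference of Ccr9 was 9.31 (adjusted p = 0.0367) and 55 genes were called.

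Outside the dendritic-like cells, 43 cells had Ccr9 at a level of at least 10. The unnamed cells led by Ung and Mybl2 held 18 of them, the progenitor-like cells 8, and the cycling-like cells 5. Of the 6 cells led by Pirb and Flt3, 5 had Ccr9 between 7.79 and 11.47. That cluster also had Cd74, Ctss and Pld4 among its leading genes, which dendritic and other myeloid cells share. The 43 cells had a median of 4 of the 21 measured dendritic markers at a level of at least 10, the same as the cells outside the cluster with Ccr9 under that level. The ranges were 1 to 15 and 0 to 12 markers, and thus overlapped from 1 to 12.

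Ccr8 was high in nearly all NK/ILC-like cells. It was at a level of at least 10 in 20 of 21 cells (95.2%, exact interval 76.2 to 99.9%), and the remaining cell had no reads of it. The 4 cells of mouse 1A ran from 8.03 to 9.31, and the 8 cells of 1B from 7.77 to 13.21 with a median of 9.39. The 9 cells of 2A ran from no reads to 9.85 with a median of 8.51, and mouse 2B had no NK/ILC-like cell. In the 55 progenitor-like cells Ccr8 was detected in 8, at a level of at least 10 in 0, which allows a share of up to 5.45%, and its highest value was 2.64. Apart from the 1 cell without reads, the 2 groups did not overlap.

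The fit with mice as units could use mice 1B and 2A alone, because in mouse 1A the 2 kinds of cell lay in different correction sets and mouse 2B had no NK/ILC-like cell. Ccr8 was higher by 9.01 in 1B and 7.17 in 2A, a mean of 8.09 ± 0.67 (SE, n = 2 mice), with a limma adjusted p of 0.0784. No gene was called in this fit (0% of 13084; 2991 at an unadjusted p under 0.05), so a fit on 2 mice does not tell which genes differ. With the 4 correction sets as units, Ccr8 was higher by 9.01, 7.91, 12.86 and 7.03 in sets 1 to 4, a mean of 9.20 ± 1.01 (SE, n = 4 sets; limma adjusted p = 0.0129). That fit called 8.56% of 13146 genes, 1.80% higher and 6.75% lower. These units are not independent animals, since sets 2 and 4 both draw on mice 2A and 2B, and they do not always compare cells of 1 mouse. In set 3 both NK/ILC-like cells were of mouse 1B and all 13 progenitor-like cells of 1A, and in set 4, 4 of 6 NK/ILC-like cells were of 1A and no progenitor-like cell was. Without set 3, an alternative added after the values were seen, Ccr8 was higher by 7.98 ± 0.51 (limma adjusted p = 0.0133), and 589 genes were called in place of 1125. Ccr9, Ccr7, Cxcr4 and Cxcr5 were not called in any of these fits, with adjusted p from 0.32 to 0.92.

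Cxcr4 had no reads in any of the 21 NK/ILC-like cells, which allows a share of up to 14.3% (the median there was 6672 detected genes), while it was detected in 16 of 55 progenitor-like cells. Its difference was -0.55 ± 0.32 over the 4 sets and did not pass (limma adjusted p = 0.325). Among the 21 NK/ILC-like cells, 11 had reads of Ccr9, and it was at a level of at least 10 in 4, of which 3 came from mouse 2A and 1 from 1A. All 4 held Ccr8 as well. Cxcr5 was detected in 4 and Ccr7 in 2 of these cells. In 1 cell of mouse 1B, Ccr8 (11.24), Cxcr5 (9.15) and Ccr7 (8.65) were high together, the highest Cxcr5 value of the matrix.

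Outside the NK/ILC-like cluster, 6 cells had Ccr8 at a level of at least 10. These 6 cells held 5 to 12 of the 17 NK/ILC markers at that level (median 10), against 0 to 6 (median 2) in the other cells outside the cluster and 8 to 16 in the cluster itself. The 6 cells thus shared NK/ILC markers with the cluster, although they were placed among dendritic-like cells (1 cell), cycling-like cells (1), the cells led by Ung and Mybl2 (3) and the cells led by Pltp and Prss16 (1). In the dendritic-like cell, Ccr9 stood at 10.71 beside Ccr8 at 4.46 and 9 NK/ILC markers. Whether such cells are mixtures of 2 cells was not tested.

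**Figure D3:**
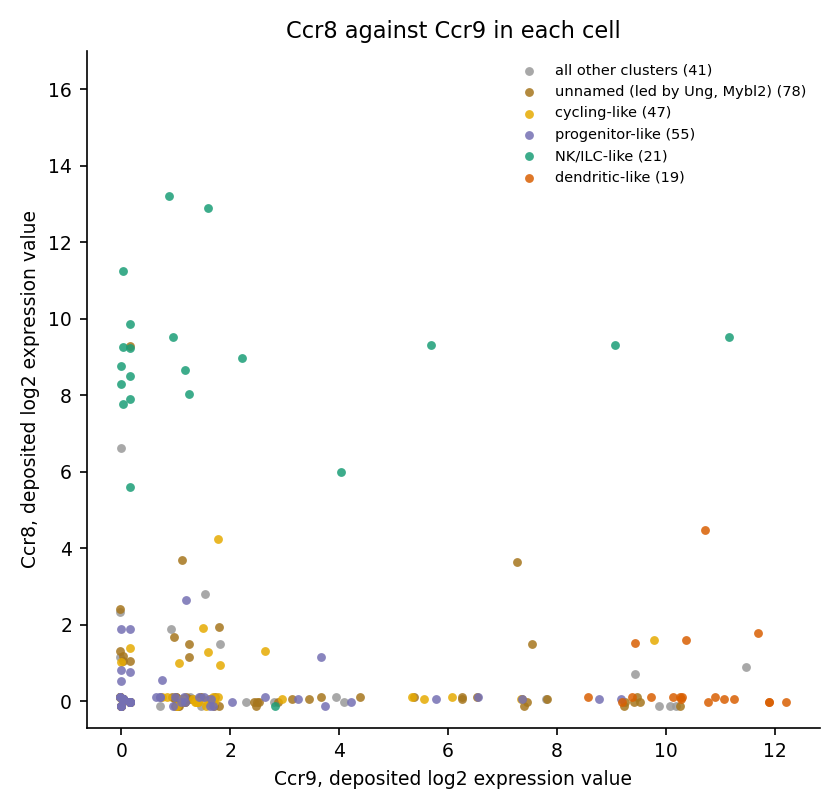
Ccr8 (vertical axis) against Ccr9 (horizontal axis), deposited log2 values, with 1 point per cell and the number of cells of each cluster in the legend. Most NK/ILC-like cells lie along the Ccr8 axis and dendritic-like cells along the Ccr9 axis, and 6 cells have both genes at a level of at least 10.

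The position of cells on the plates moved with Ccr8. All 21 NK/ILC-like cells were among the first 8 numbered cells of a correction set, where 22 of 32 cells had Ccr8 at a level of at least 10, against 4 later cells (1.75%). Of the 11 other cells in these wells, 8 had reads of Ccr8 (72.7%), against 14.8% of later cells. No value of the NK/ILC-like cells can be had without these wells, and cell type and position cannot be told apart for Ccr8. Low Ccr8 values also lay close to them. On the plates AF1, AF2 and JW7, values under a level of 10 were found in 17 of 54 other cells within 10 cell numbers of an NK/ILC-like cell (31.5%) and in 9 cells farther away (5.59%). For 3 genes of NK cells the same shares were 14.8 and 11.2% (Klrk1), 31.5 and 21.7% (Il2rb), and 3.70 and 13% (Ncr1). Among the other receptors, Cxcr5 also had more low values near these cells, 14.8 and 3.73%. The shares were 38.9 and 30.4% for Ccr9, 33.3 and 36.6% for Cxcr4, and 1.85 and 4.97% for Ccr7. Plate JW8 had no NK/ILC-like cell, and 10 of its 25 cells had low Ccr8 (40%). Low values on that plate were found in 76% of cells for Il2rb, 36% for Klrk1 and 16% for Ncr1. For Ccr9, Cxcr4, Ccr7 and Cxcr5 they were found in 48, 44, 12 and 12%. The part of neighbouring wells in these low values was not tested. In the progenitor-like cells Ccr8 was detected in 14.5%, against a median of 18.2% for the 17 NK/ILC markers. Among these markers, Klrk1 and Ncr1 were each detected in 12.7% and Il2rb in 34.5% of the progenitor-like cells.

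**Figure D4:**
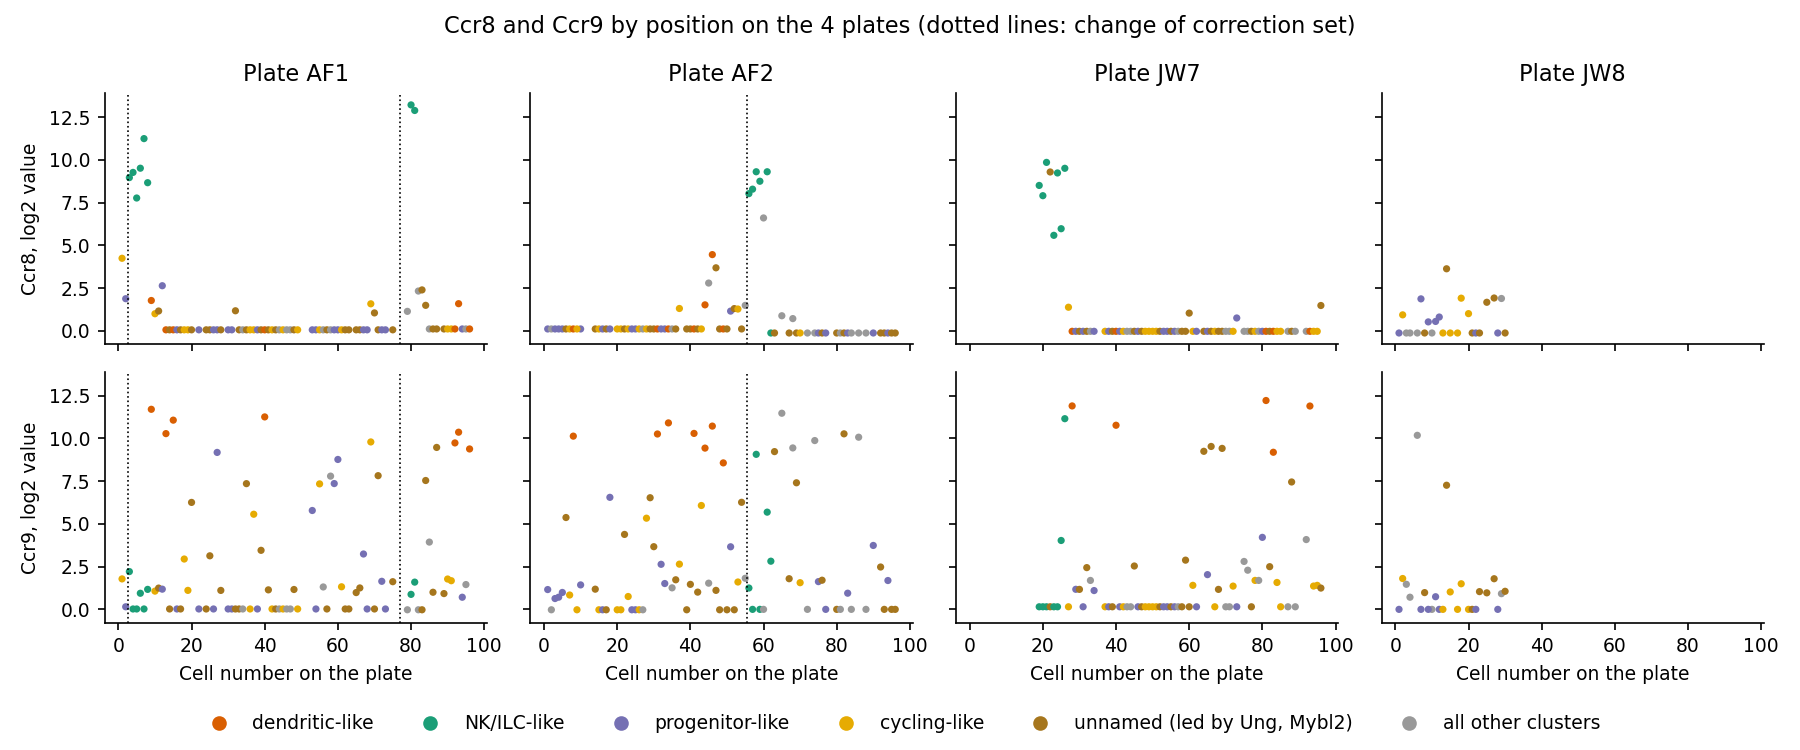
Deposited log2 values of Ccr8 (top) and Ccr9 (bottom) against the number of the cell on each of the 4 plates, coloured by cluster, with dotted lines where the correction set changes. High Ccr8 stands in short runs of neighbouring cells, and high Ccr9 is spread along the plates.

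Ccr7 was carried by scattered cells of several clusters. Of the 24 cells with Ccr7 at a level of at least 10, 9 belonged to the cells led by Ung and Mybl2 and 7 to the cycling-like cells, clusters that make up 29.9 and 18% of all cells. The progenitor-like cells held 2 and the 6 cells led by Pirb and Flt3 held 3. By mouse there were 7 such cells in 1A, 4 in 1B, 10 in 2A and 3 in 2B. Between cycling progenitors and progenitor-like cells, a comparison added after the values were seen, Ccr7 differed by 1.09, 0.67, 0.38 and 0.19 in the 4 mice in turn, from 1A to 2B (mean 0.58 ± 0.25, SE). With Leiden clustering the mean was -0.10. The difference did not pass (limma adjusted p = 0.457; 0% of 13150 genes called, 1508 at an unadjusted p under 0.05).

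Cxcr4 was spread over all kinds of cell except the NK/ILC-like cells and the cluster of 3 cells. It was detected in 29.1% of progenitor-like, 48.9% of cycling-like and 51.3% of the Ung- and Mybl2-led cells, with medians of 7580, 8391 and 8090.5 detected genes. The Ung- and Mybl2-led cells held 9 of the 17 cells at a level of at least 10. With the number of detected genes as a term, Cxcr4 was higher in cycling progenitors by 0.61 in mouse 1A, 0.20 in 1B, 0.35 in 2A and 1.09 in 2B. The mean of 0.56 ± 0.25 did not pass (limma adjusted p = 0.468). The shared sign depended on the setting: with Leiden clustering the mean was 0.075 and mouse 1A was at -0.86, with levels under 10 set to no reads mice 1B and 2A were at -0.07 and -0.08, and with 8 clusters 1B was at -0.02. Among the small clusters, 6 of 9 basophil- or mast-like cells and 4 of 7 macrophage-like cells had Cxcr4.

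Cxcr5 was rare and low. Of 25 cells with reads, 5 had a level of at least 10, and they ran from 4.74 to 9.15. These were the NK/ILC-like cell of mouse 1B named above, a cell each of 1A (8.76) and 2A (6.73) led by Ung and Mybl2, and 2 cycling-like cells of 2B (7.20 and 4.74). The progenitor-like cells had Cxcr5 in 4 of 55 cells, none at that level, which allows a share of up to 5.45%. At that level Cxcr5 was thus seen in 1 or 2 cells of each mouse. The cell of 1A also had Ccr8 at 3.69 and is 1 of the 6 described above.

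Within the T lineage, the receptors were compared by stage in progenitor-like and cycling progenitor cells together. Flt3 encodes a cytokine receptor of the earliest progenitors, and Il2ra encodes CD25, which appears as progenitors advance. Ccr9 at a level of at least 10 was found in 29 cells with Flt3 reads (25.2%) and in 2 of 65 without (3.08%). By mouse the counts were 10 of 32 against 1 of 12 in 1A, 10 of 33 against 0 of 18 in 1B, 4 of 24 against 0 of 17 in 2A and 5 of 26 against 1 of 18 in 2B. The share was higher with Flt3 in 4 of 4 mice. The log2 difference, adjusted for correction set and detected genes, was 1.67, 2.58, 0.68 and 0.57 in that order, a mean of 1.37 ± 0.38 (SE, n = 4 mice). It did not pass over all genes (limma adjusted p = 0.676), and 0% of 13149 genes did (875 at an unadjusted p under 0.05). This comparison was added after the values were seen.

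For Il2ra the sign of the Ccr9 difference was the opposite. Of the cells with Il2ra reads, 49% had reads of Ccr9 and 12.5% a level of at least 10, and of the 76 cells without Il2ra 65.8% and 23.7%. The log2 difference was -0.42 in mouse 1A, -1.78 in 1B, -0.74 in 2A and -1.19 in 2B, with a mean of -1.03 ± 0.28 (SE). With Leiden clustering the mean was -0.60, with 0.30 in 1A and 0.11 in 2B, and with levels under 10 set to no reads 1A was at 0.07, so the sign was not shared by all mice in every setting. The share at the higher level was lower with Il2ra in 3 of 4 mice and higher in 1A (6 of 22 against 5 of 22). The difference did not pass (limma adjusted p = 0.851; 0% of 13149 genes called, 753 at an unadjusted p under 0.05). Ccr7, Ccr8, Cxcr4 and Cxcr5 differed by -0.51 to 0.19 with Il2ra and by -0.43 to 0.35 with Flt3, and none was called.

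**Figure D5:**
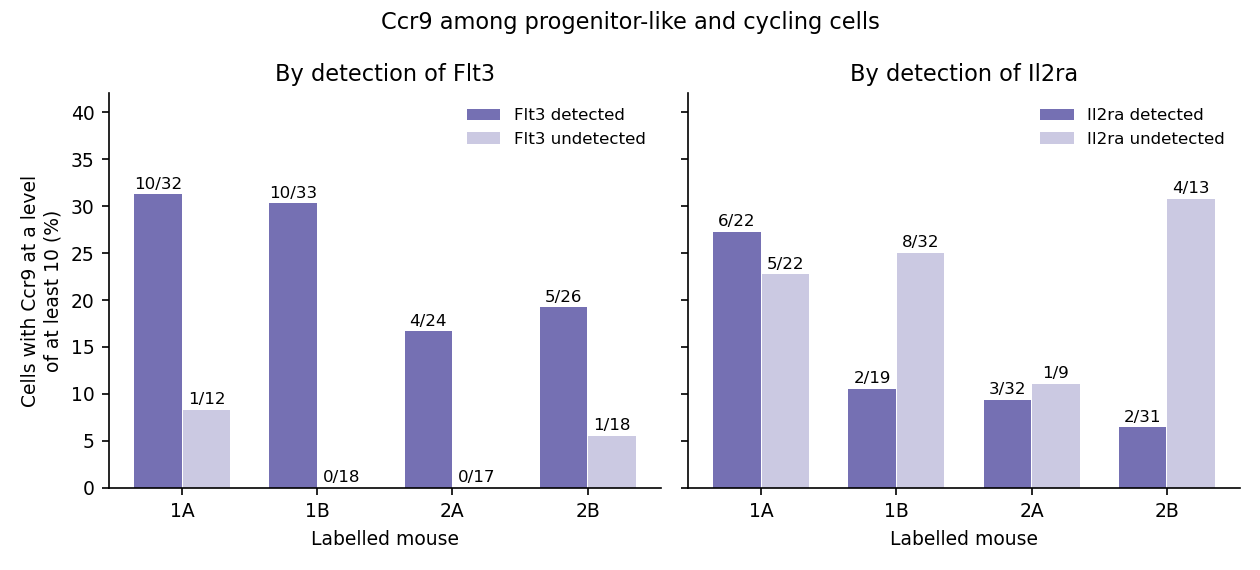
Share of progenitor-like and cycling progenitor cells with Ccr9 at a level of at least 10 (vertical axis, percent) in each labelled mouse, split by reads of Flt3 (left) or Il2ra (right), with the counts of cells above each bar. The bar with Flt3 is the higher in all 4 mice, and the bar with Il2ra is the higher in mouse 1A alone.

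Most cells had at least 1 of the receptors. None was detected in 38 cells (14.6%), 1 in 41% of cells, 2 in 82 cells, 3 in 27 and 4 in 7, and no cell had all 5. Ccr9 alone was the most frequent pattern (55 cells), followed by Ccr9 with Cxcr4 (40 cells), Cxcr4 alone (30) and Ccr9 with Ccr8 (20). At a level of at least 10, 58.2% of cells had none, 87 cells had 1, 19 had 2 and 3 had 3. The share of cells in which no receptor was detected was 5.97% in mouse 1A, 20.3% in 1B, 20.3% in 2A and 11.5% in 2B. The share with no receptor at a level of at least 10 was 47.8, 56.5, 60.9 and 68.9% in the same order. Receptors thus mostly appeared singly once low values were set aside.

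For most pairs, both receptors were detected together about as often as the product of their shares within each mouse. Ccr9 and Cxcr4 were found together in 23.5% of cells, with a product of 23.8%. Ccr8 and Cxcr4 met less often than the product in 4 of 4 mice, 6.18% against 9.64% (difference -3.47 ± 1.53 points, SD), and Cxcr4 had no reads in the NK/ILC-like cells. Ccr8 and Cxcr5 met more often in 4 of 4 mice, 4.94% against 2.15% (2.79 ± 2.18 points). Low values of both genes were more frequent near NK/ILC-like cells on the plates, as given above, and the part of position in this pair was not tested. At a level of at least 10, Ccr9 and Ccr7 met in 11 cells, which are 45.8% of the cells with Ccr7 and 17.7% of those with Ccr9. Of the 11 cells, 7 were from mouse 2A, 2 from 1A, 2 from 2B and 0 from 1B, so this pair rests largely on mouse 2A. These shares are described without a test.

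By rank correlation within each mouse, given detected genes and correction set, the genes most like Ccr9 over all cells were Siglech (mean rho 0.483, from 0.250 in mouse 1B to 0.651 in 2A), Lsp1, Pld4, Hs3st1 and Tlr3. The 5 means ran down to 0.405, and Siglech encodes a receptor of plasmacytoid dendritic cells. Among progenitor-like and cycling progenitor cells alone, Siglech was again the first (0.344), followed by the cathepsin genes Ctso (0.34) and Ctss (0.330). Ccr8 was most like Ikzf3 (0.489), which encodes the Ikaros family factor Aiolos, then Tnfrsf9, Cxcr6, Klrk1 and Il2rb (0.412). In the progenitor-like and cycling progenitor cells, Ikzf3 remained at 0.379 and Klrk1 was at 0.159. Those cells still included 1 cycling-like cell and 3 cells led by Ung and Mybl2 with Ccr8 at a level of at least 10. As described above, these shared NK/ILC markers. For Ccr7, Cxcr4 and Cxcr5 the highest means were 0.325 (Spsb1), 0.246 (Pkmyt1) and 0.230 (Acap1) and are not read further. The values over all cells rest on 61 to 69 cells of a mouse, which lay on 1 or 2 plates. Those within progenitor-like and cycling progenitor cells rest on 41 to 51 cells of a mouse. In each case 12439 genes were ranked.

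Other genes of the pathway were counted by list. Of the 15 measured other receptors counted here, which include S1pr1 and S1pr4 for the lipid signal of thymic exit, detection ran from 1.92 to 76.2% of cells, with Cxcr2 at the top, then S1pr4 (73.6%) and Ccr2 (59%). With correction sets as units, 4 of 12 tested were higher in NK/ILC-like cells and 1 was lower, against 1.80% of all genes higher and 6.75% lower. Cxcr6 rose by 6.31 ± 0.66, Cxcr3 by 6.28 ± 0.75, Ccr2 by 4.64 ± 0.90 and S1pr4 by 3.06 ± 0.50, and Cxcr2 fell by 2.02 ± 0.33 (log2, SE, n = 4 sets; limma adjusted p 0.0118 to 0.0422). Without set 3, Cxcr6 and Cxcr3 were still called and Ccr2, S1pr4 and Cxcr2 were not. The median of the list was 0.95, and that of all genes -0.47. In dendritic-like cells 1 of 12 was higher and 0 lower over the 4 mice, Cxcr3 by 3.63 ± 0.49 (limma adjusted p = 0.0185), beside 2.08% of all genes higher and 9.56% lower. The list's median was -0.03 and that of all genes -0.63. With mice as units no gene of these lists was called in NK/ILC-like cells, and none in dendritic-like cells without mouse 1A.

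Ligand genes were tested in the same cells. Of the ligands of the 5 receptors, 5 were measured, and Ccl25 was detected in 40.6% of cells (22.6% at a level of at least 10), Cxcl12 in 11.5%, Ccl8 in 5.75%, Ccl1 in 5.36% and Ccl21a in 3.83%. No ligand of the 4 tested in NK/ILC-like cells and the 2 tested in dendritic-like cells was called. Of the other chemokines, 2 of 14 tested were higher in NK/ILC-like cells by sets, Xcl1 (7.41 ± 1.14) and Ccl5 (6.57 ± 0.45; limma adjusted p = 0.0272 and 0.00459), and 0 of 14 were called in dendritic-like cells. Among 34 tested genes of receptor signalling and desensitisation, 3 were higher and 4 lower in NK/ILC-like cells by sets, and 1 was higher and 1 lower in dendritic-like cells by mice. Over all genes, 1.80% were higher and 6.75% lower by sets, and 2.08% and 9.56% by mice, and nothing particular to the list is read from these counts. Rgs1, a brake on chemokine receptor signalling, rose by 4.65 ± 0.43 in NK/ILC-like cells, and Plcb2, a phospholipase downstream of the receptors, fell by 3.79 ± 0.53 (limma adjusted p = 0.00924 and 0.0223). Pik3r5, a regulatory subunit of PI3K-gamma, rose in both, by 3.11 ± 0.44 in NK/ILC-like cells and 4.82 ± 0.85 in dendritic-like cells (limma adjusted p = 0.0224 and 0.0295). Without set 3, Rgs1 was still called in NK/ILC-like cells, and Plcb2 and Pik3r5 were not. Arrb2, which encodes a beta-arrestin that ends receptor signalling, fell by 2.87 ± 0.62 in dendritic-like cells (limma adjusted p = 0.0465). With the number of detected genes as a term, 17 genes were called lower in dendritic-like cells, against 1254 without it. The fit of NK/ILC-like cells by sets was not run with that term. Whether the falls of Arrb2, Plcb2 and Cxcr2 go with fewer detected genes was not examined gene by gene.

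Shares differed between plates within a mouse and between mice within a plate. Mouse 2A lay on 2 plates of different library pools. Ccr9 was detected in 19 of its 29 cells on plate AF2 and in 10 of its 35 cells on JW7, with medians of 7755 and 7899 detected genes. Cxcr4 was found in 15 and 8, Ccr8 in 3 and 9, Cxcr5 in 2 and 8 and Ccr7 in 7 and 6 of the same cells. The kinds of cell differed too: AF2 held all 4 Pirb- and Flt3-led cells of 2A and 2 of its NK/ILC-like cells, and JW7 held the other 7. On JW7, within 1 correction set, Ccr9 was detected in 23 of the 36 cells of mouse 2B and Cxcr4 in 18, more than in the 35 cells of 2A, while Ccr8 (3 cells), Cxcr5 (3) and Ccr7 (4) were found in fewer. With 1 library pool for each of these plates and 1 value per mouse, these are descriptions and mice were not tested against each other.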

How the data were processed

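Single cells were sorted into 96-well plates, and cDNA was primed with oligo-dT, amplified by PCR and made into Nextera XT libraries, per the labels' protocols. Per the submitters' processing notes, the tools included Salmon and the genome was GRCm38. The deposited values are normalized, batch-corrected log2 expression values by the authors, from -4.13 to 15.99; base 2 is inferred from the values, since 2 raised to them sums to a median of 1264338 per cell, of the order of a per-million scale. The sources used here do not give the normalization, correction tool or filters. Of 300 labelled cells, 261 were analysed and 39 were not analysed here.

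Exact shared values split the cells into 4 correction sets (13.3% or more of values shared inside a set, 0% between sets). Set 1 held 64 cells of mouse 1B and 1 of 1A, set 2 held 35 of 2A, 36 of 2B and 2 of 1B, set 3 held 61 of 1A, 3 of 1B and 3 of 2A, and set 4 held 26 of 2A, 25 of 2B and 5 of 1A. Mice 2A and 2B thus share sets, and p-values measure the spread between labelled mice that may not be independent. A gene's repeated lowest value in a set was its level at no reads (tolerance 1e-06).

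Cells were clustered by Ward's method into 10 clusters on 20 principal components of the 2000 most variable genes, centred by set, without chemokine, chemokine receptor and S1pr genes. A cluster took the name of the marker list with the highest mean, if at least 2 of that list were among its 10 leading genes and no other list had more; cycling progenitors are cycling or unnamed clusters with progenitor and cycling lists above 0.5. The number of clusters was chosen after counts per cluster were seen. No doublet caller was run, since no counts are given.

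For each comparison, the class coefficient of a linear model with correction set (and, by stage and cycling, detected genes) was taken in each mouse with at least 2 cells of each class, and the coefficients were tested with limma 3.58.1 in R 4.3.3 (intercept only, two-sided, no trend), with Benjamini-Hochberg adjustment over all genes detected in at least 5% of cells, at 0.05. The steps were run on simulated data, in which each gene was drawn on its own from the second class and some were shifted by a constant. These data held no difference in depth between classes and no spread between mice of a set, so they do not bear on either. Cells were not used as replicates. Likeness is the mean over mice of a partial Spearman rho, over genes detected in at least 10% of cells and positive in every mouse; the first 5 are named. Of each list, up to 10 called genes with the largest differences qualified for naming. Alternatives were other units, terms, filters, clusterings, left-out mice and left-out wells. IDs were matched to GENCODE vM21 symbols (13578 of 13737). The receptors and gene lists were chosen with earlier results of these data known. List members absent from the matrix, 1 further receptor of the lists, a further reporter and promoter or protein sequences were not analysed here. The cycling and Flt3 comparisons, the 8 clusters, the fit by sets without set 3 and the term for detected genes in the NK/ILC-like and dendritic-like comparisons were added after values were seen.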

Additional observations from a re-analysis of the deposited data

Results flagged for a closer look

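Over the 30 groups of 4 mouse values examined for a mouse far from the other 3, 2 had one, where chance gives about 1 in 20. Cells with Cxcr5 at a level of at least 10 made up 3.28% of mouse 2B (2 of 61 cells), against 1 cell in each of the other mice (1.45 to 1.56%), so the gap is a single cell.

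The difference of Ccr7 between cells with and without Il2ra was -1.72 in mouse 2A and between -0.20 and -0.03 in the other mice. In mouse 2A, 9 cells lacked Il2ra and 4 of them had Ccr7, against 5 of 32 cells with Il2ra.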

How the results depend on the processing

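No paired analysis was possible because the labels give 1 group and no replicate numbers shared between groups; kinds of cell were compared within each mouse. Depth is known only as detected genes, so low values cannot be told from absent transcripts by count, and shares move with the threshold. At a level of at least 10, the share of cells with Ccr9 was 23.6%, Ccr8 9.80%, Cxcr4 6.57%, Cxcr5 1.95%, and 2 or more receptors 8.50%. Ccr8 was detected in 14.6% of cells without the first 8 wells of each set and in 16.9% without the NK/ILC-, dendritic-, macrophage- and basophil- or mast-like cells. The median likeness of the 5 genes most like Ccr8 was 0.251 in progenitor-like and cycling cells.

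Between NK/ILC-like and progenitor-like cells, 1125 genes were called with the set as unit, 589 with the set as unit and without set 3, 689 without a set term, 824 with levels under 10 set to no reads and 569 with a limma trend, and Ccr8 was then called (adjusted p 0.000157 to 0.0150); no gene was called with Leiden clustering, 8 clusters, a term for detected genes or no filter, with Ccr8 between 7.81 and 8.82 (1526 to 3046 genes at an unadjusted p under 0.05). The fit could not be made without mouse 1B or 2A, nor without the first 8 wells. Between dendritic-like and progenitor-like cells, 0 to 492 genes were called when a mouse was left out, 522 with Leiden clustering and 55 with a term for detected genes, and Ccr9 lost its call without mouse 1A and in no other setting run. Cycling progenitors had 12 genes called with the set as unit, 23 with a trend and 120 without the term for detected genes.

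Signs that turned, none of them of a called value, were as follows. In NK/ILC-like cells Ccr9 was -2.08 with Leiden clustering and -0.41 with 8 clusters, and Ccr7 was -0.82 with Leiden clustering and -0.011 without a set term. In dendritic-like cells leaving out a mouse gave Ccr8 -0.11 (without 1A) to 0.19, Ccr7 -0.32 (without 2B) to 1.19 and Cxcr4 -0.074 (without 2B) to 0.83, and Cxcr5 was -0.041 with detected genes. By Il2ra, leaving out a mouse gave Cxcr5 -0.26 to 0.051 (0.014 without 2B) and Ccr8 -0.38 to 0.14, and Ccr8 was 0.045 without the first wells. In cycling progenitors Ccr9 was -1.73, Ccr7 -0.098 and Cxcr4 0.075 with Leiden clustering. By Flt3, Cxcr5 was -0.086 to 0.074 with a mouse left out (-0.0045 without 2A), -0.017 without a set term, -0.027 with Leiden clustering and -0.0066 with 8 clusters, and Ccr8 was 0.10 with Leiden clustering. The cause was not tested.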
